A study of Homo sapiens with 10 samples.

Results

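Transcripts of 42 mitosis and G2/M genes were followed by RNA-seq in HAP1, a human cell line of leukaemic origin that carries close to 1 copy of each chromosome. The members were picked by gene function, with earlier results of these data known, and the set makes up 42 of the 59453 genes in the count tables. All 42 passed the filter on low counts in both fits. Each of the 8 untreated libraries came from a separate clone, with 2 clones per genotype: wild type (WT) clones 2 and 11, clones 7 and 8 with MUTYH targeted, clones 1 and 22 with OGG1 targeted, and clones 4 and 14 of the double knockout (DKO), made to lack both DNA glycosylases. The other 2 libraries came from WT clones 2 and 11 harvested 24 h after 100 µM H2O2, written here as treated WT. The knockouts were made by CRISPR-Cas9. The paper's supplement names 1 OGG1 knockout clone, by its product number clone 22, as the parent of both DKO clones. The DKO clones were thus not derived independently of the OGG1 knockout. OGG1 removes 8-oxoguanine from DNA and MUTYH removes adenine paired with it.

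Mitosis genes are transcribed in a wave that begins in S phase and peaks in G2 and mitosis. In G1 the DREAM complex holds them down through the cell cycle genes homology region (CHR) of their promoters, and later B-MYB and FOXM1 activate them through the same element, with NF-Y bound to nearby CCAAT boxes. The p53 target p21, encoded by CDKN1A, lowers them by restoring DREAM. In a bulk culture a lower level of such a gene could mean fewer cells in G2 and mitosis or less RNA per cell, and the 2 cannot be told apart here.

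Promoter sequences show what the members share beyond their function. RefSeq promoter windows on GRCh38.p14, from 250 bases before to 50 after a start, were matched by symbol for 34 of the 42 members, in 45 windows. AURKA, BIRC5, BUB3, FOXM1, TPX2, TTK, UBE2C and WEE1 had no match. The windows below are shown for CCNB1, CDC20 and PLK1 because they have the highest levels per kilobase of canonical transcript among the members. Levels are in CPM, counts scaled to a common library size. PTTG1 and MKI67 are shown for their difference between the library sets described further on. Of the members at 10 CPM or more, it was the most positive in PTTG1 and the most negative in MKI67. CCNB1 lies at chr5:69166900-69167199 on the plus strand, CDC20 at chr1:43358731-43359030 on the plus strand, PLK1 at chr16:23678639-23678938 on the plus strand, MKI67 at chr10:128126374-128126673 on the minus strand and PTTG1, as the first of its 2 windows, at chr5:160421605-160421904 on the plus strand. Each is written 5′ to 3′ on the strand of the gene, and capitals mark every match to the CHR (TTTGAA or TTTAAA) or to the NF-Y box (CCAAT), on either strand.
CCNB1: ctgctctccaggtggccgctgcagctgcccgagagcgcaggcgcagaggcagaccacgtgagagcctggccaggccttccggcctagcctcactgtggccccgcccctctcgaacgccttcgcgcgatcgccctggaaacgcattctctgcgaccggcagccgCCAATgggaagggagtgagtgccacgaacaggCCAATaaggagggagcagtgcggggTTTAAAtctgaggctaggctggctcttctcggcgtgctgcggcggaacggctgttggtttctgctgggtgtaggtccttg
CDC20: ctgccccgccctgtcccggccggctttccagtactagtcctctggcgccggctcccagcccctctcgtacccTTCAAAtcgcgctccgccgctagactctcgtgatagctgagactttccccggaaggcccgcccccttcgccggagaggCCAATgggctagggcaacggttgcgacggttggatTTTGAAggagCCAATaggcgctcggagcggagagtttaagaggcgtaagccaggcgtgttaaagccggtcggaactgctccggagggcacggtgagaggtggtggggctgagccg
PLK1: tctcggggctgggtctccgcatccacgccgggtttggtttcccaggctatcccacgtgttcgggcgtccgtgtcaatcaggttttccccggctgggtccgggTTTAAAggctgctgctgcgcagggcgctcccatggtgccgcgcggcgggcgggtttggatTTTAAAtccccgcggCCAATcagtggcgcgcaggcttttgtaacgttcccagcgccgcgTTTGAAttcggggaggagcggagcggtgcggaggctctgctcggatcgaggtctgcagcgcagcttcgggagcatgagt
MKI67: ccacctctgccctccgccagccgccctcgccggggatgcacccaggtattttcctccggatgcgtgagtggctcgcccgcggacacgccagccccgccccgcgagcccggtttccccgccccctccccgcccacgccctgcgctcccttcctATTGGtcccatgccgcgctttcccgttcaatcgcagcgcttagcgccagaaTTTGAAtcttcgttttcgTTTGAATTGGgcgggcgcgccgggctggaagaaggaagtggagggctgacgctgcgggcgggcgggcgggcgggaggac
PTTG1: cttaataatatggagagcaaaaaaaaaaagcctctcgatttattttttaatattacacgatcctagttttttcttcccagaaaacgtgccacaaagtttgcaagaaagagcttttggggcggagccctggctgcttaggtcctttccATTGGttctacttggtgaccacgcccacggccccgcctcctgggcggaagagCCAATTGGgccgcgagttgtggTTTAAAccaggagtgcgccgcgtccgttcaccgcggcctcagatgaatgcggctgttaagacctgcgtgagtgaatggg

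Counted from the start, a CHR match began at position -30 in CCNB1, at -29 in PTTG1, and at -47 and -29 in MKI67. In PLK1 the matches began at -148, -88 and -29, and in CDC20 at -178 and -65. The second CHR match of MKI67 ran into a CCAAT match, the only such overlap in the member windows. Over the 34 members with a window, 30 genes (88.2%) held a CHR match, against 27.9% of the 27305 genes with any window. The NF-Y box was present in 28 members (82.4%), against 39.7% of all genes, and both elements in 23 members (67.6%), against 11.2%. AURKB, BUB1, CCNA2 and SGO1 held none of these CHR letters in their windows, and ANLN, BUB1B, CENPE, KIF2C, NDC80 and NUF2 held no CCAAT. A match is a description of the letters in the window, and no binding was measured.

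**Figure D1:**
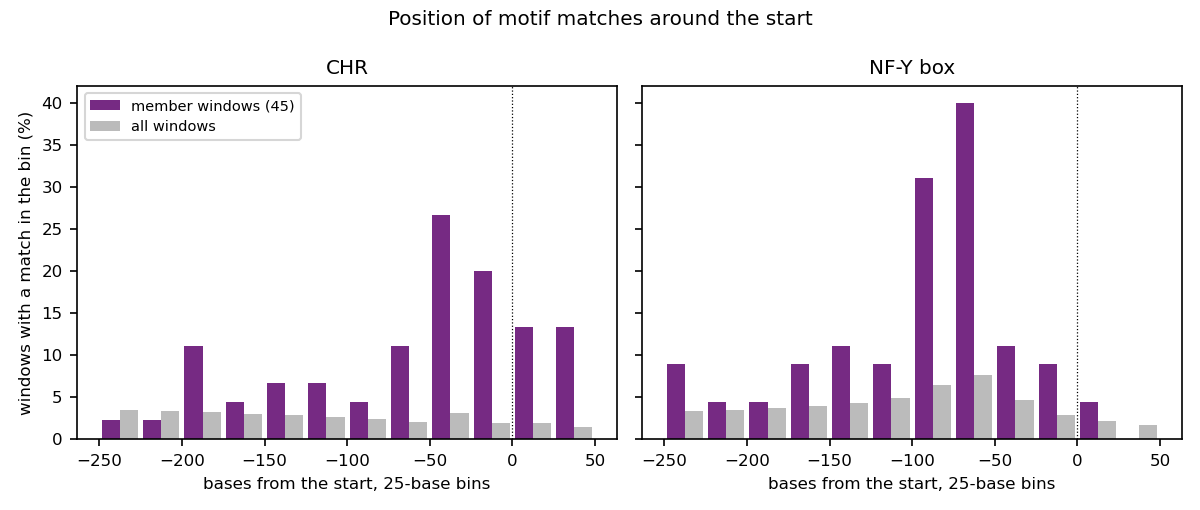
Share of promoter windows (%, y axis) with a match that begins in each 25-base bin (x axis, bases from the start) for the CHR (left) and the NF-Y box (right), in the 45 member windows and in all 35116 windows. CHR matches of the members peak between positions -50 and -25, in 26.7% of member windows against 3.08% of all windows, and NF-Y boxes peak between -75 and -50, in 40.0% against 7.62%.

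The libraries were of similar depth, with 22225091 to 22674964 counts, and the members took 0.718% to 0.830% of these. A level of 1 CPM thus corresponds to about 22.2 counts in the library of lowest depth. Mitochondrial genes took 2.995% to 7.46% of counts. Of the markers of the line, BCR ranged from 23.8 to 30.5 CPM over the 10 libraries. Of 12 blood lineage genes, 3 were at 0 in all libraries and 2 exceeded 1 CPM in any library, led by KIT, with a highest level of 18.5 CPM; their summed level was 2.94 to 19.2 CPM. The OGG1 transcript was at 1.22 CPM in OGG1 knockout clone 1 but at 11.3 CPM in clone 22, near the 12.2 and 13.1 CPM of WT. Both DKO clones also kept it, at 9.63 and 9.83 CPM. The MUTYH transcript was at 4.66 and 3.68 CPM in the MUTYH knockout and at 4.75 and 2.205 CPM in DKO, against 4.66 and 3.94 CPM in WT. A knockout need not lower the transcript, and the paper reports protein loss in every knockout clone by targeted mass spectrometry. A result of the OGG1 knockout is also given without clone 22 where its count changes.

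By these counts, all members but 3 were strongly expressed. In the means over the 8 untreated libraries, 39 members lay between 22.9 CPM (SGO1, a protector of centromeric cohesion) and 802 CPM (MKI67, the Ki-67 proliferation marker). The remaining 3, named after their values were seen, were UBE2C at 0.977 to 2.87 CPM, NUSAP1 at 2.12 to 3.34 CPM and PRC1 at 5.20 to 6.78 CPM. In GENCODE v44, 86.8% of the exon bases of NUSAP1 and 57.6% of those of PRC1 are shared with another gene on the same strand, and those of UBE2C with none. How reads in shared exons were counted is not stated, so the levels of NUSAP1 and PRC1 are uncertain. The reads were counted against an earlier Ensembl annotation, in which overlaps were not examined, so the UBE2C level is uncertain as well.

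To set different genes side by side, levels were divided by the length of the Ensembl canonical transcript of each gene. On this scale PLK1 was highest at 152 CPM per kb, followed by CDC20 (151), CCNB1 (139.9), PTTG1 (137) and TOP2A (133). Reads were counted over whole genes, so the order depends on this choice of length, and no other was tried. Annotated exons together span 4760 bases in PLK1, against 2160 in the canonical transcript. In CDC20 they span 2012 against 1649, and in PTTG1 1975 against 715. SGO1 was lowest of the 39, at 7.46 CPM per kb. The order is not resolved in detail: of 41 neighbouring pairs in it, 37 had ranges over the untreated libraries that overlapped. The 4 gaps lay between TPX2 and CCNA2, between SGO2 and SGO1, between SGO1 and UBE2C, and between PRC1 and NUSAP1.

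The members varied little between the untreated libraries. For the 39 members at 10 CPM or more, the ratio of the highest to the lowest untreated library had a median of 1.33 (range 1.14 for KIF23 to 1.94 for PTTG1). It was under 1.5 for 76.9% of them, against 52.4% of the 10216 tested genes at 10 CPM or more. Above that limit these genes were not matched to the members in level. Summed over the 42 members, the level was 7742 ± 362 CPM in WT, 7997 ± 79.1 in the MUTYH knockout, 7303 ± 183 in the OGG1 knockout, 7523 ± 535 in DKO and 8157 ± 404 in treated WT (SD, n = 2 clones each). DKO clone 4, at 7144 CPM, was the lowest library, and treated WT clone 2, at 8443 CPM, the highest.

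**Figure D2:**
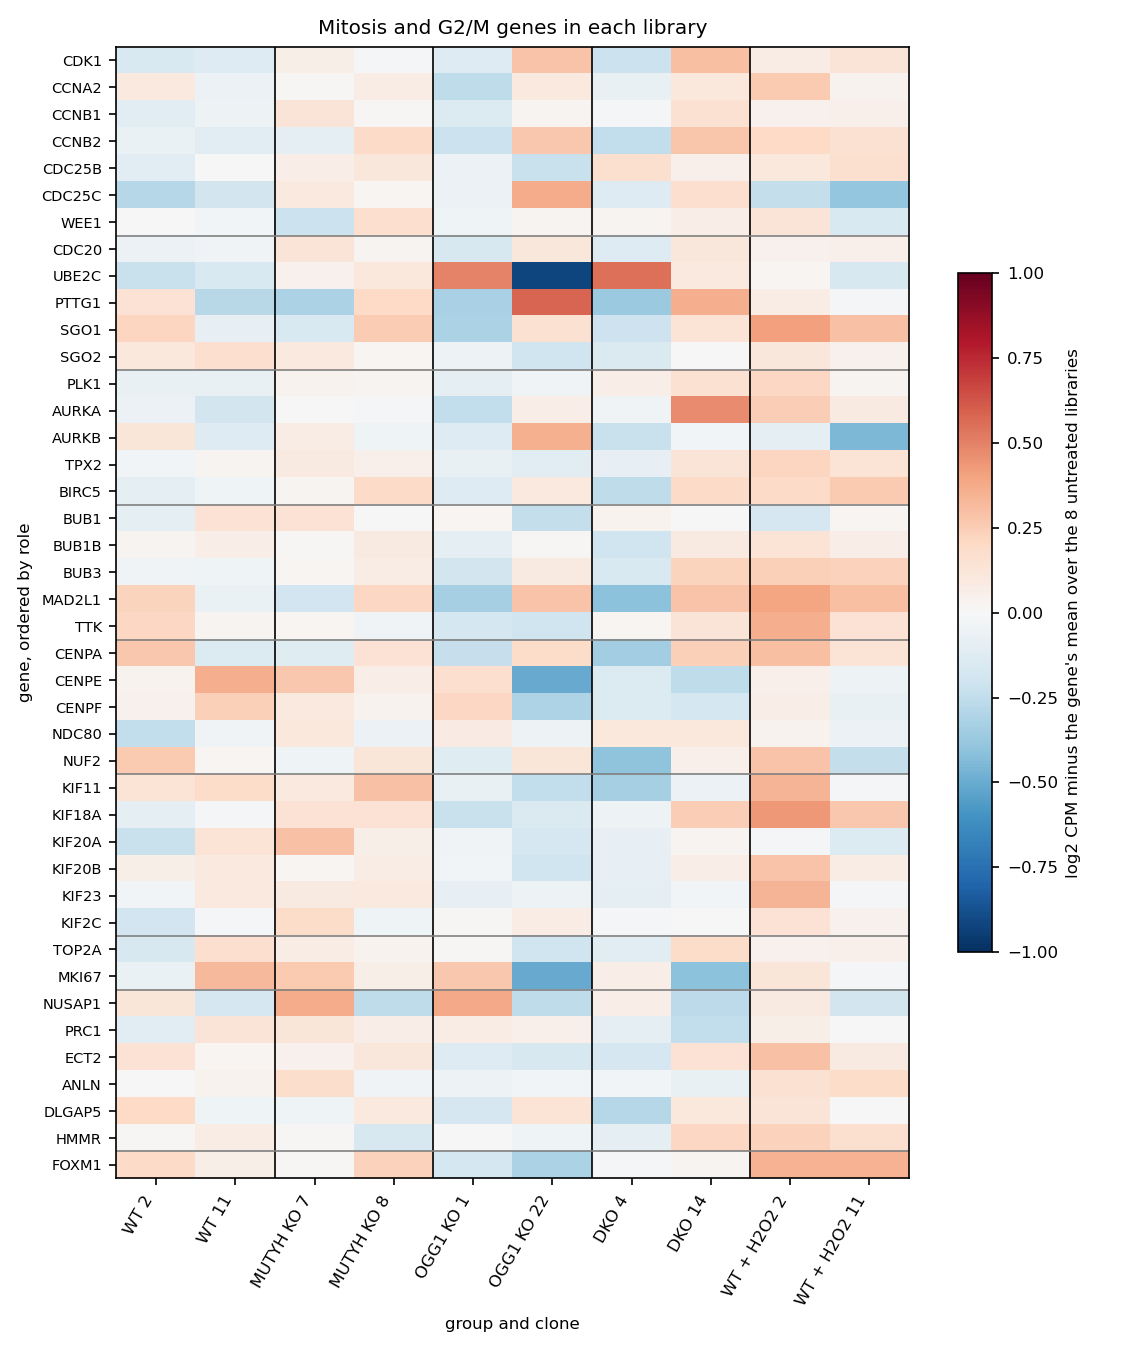
Log2 CPM of the 42 members (rows, ordered by role) in each of the 10 libraries (columns, group and clone), as the difference from the mean of each gene over the 8 untreated libraries; grey lines part the roles and black lines the groups. Colours seldom separate whole groups, and UBE2C, at 0.977 CPM in OGG1 knockout clone 22, is the darkest cell.

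In the following, 2 values of a group stand in the order of the clones given above. CDK1 is the kinase that drives entry into mitosis, and its partners are the B-type cyclins and, earlier, cyclin A. CDK1 was at 136 and 138 CPM in WT, 157 and 149 in the MUTYH knockout, 138 and 184 in the OGG1 knockout, 129.7 and 186 in DKO, and 159 and 165 in treated WT. Both WT clones were close together, clone 22 of the OGG1 knockout and clone 14 of DKO were high, and the other DKO clone was lowest. CCNB1, cyclin B1, was at 262 and 273 CPM in WT, 309 and 286 in the MUTYH knockout, 257 and 289 in the OGG1 knockout, 279 and 315 in DKO, and 292 and 294 in treated WT. CCNB2, cyclin B2, was at 152 and 148 CPM in WT, 149.5 and 182 in the MUTYH knockout, 137 and 192 in the OGG1 knockout, 134 and 193 in DKO, and 183 and 177 in treated WT. CCNB2 was high in 1 clone of every knockout, while CCNB1 stayed between 257 and 315 CPM. Both B-type cyclins were higher in OGG1 knockout clone 22 and DKO clone 14 than in the other clone of the genotype. In the MUTYH knockout their clone differences went opposite ways. CCNA2, cyclin A, was at 245 and 219.9 CPM in WT, 230.3 and 241 in the MUTYH knockout, 192 and 245 in the OGG1 knockout, 218 and 247 in DKO, and 274 and 234 in treated WT. It was lowest in OGG1 knockout clone 1, and groups overlapped.

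CDC25B and CDC25C are the phosphatases that switch CDK1 on, and WEE1 is the kinase that holds it off. CDC25B was at 107 and 115 CPM in WT, 121 and 125 in the MUTYH knockout, 111 and 99.0 in the OGG1 knockout, 129 and 119 in DKO, and 124 and 129 in treated WT. CDC25C, a far less abundant transcript, was at 28.3 and 30.5 CPM in WT, 37.1 and 35.2 in the MUTYH knockout, 33.2 and 44.8 in the OGG1 knockout, 31.7 and 38.98 in DKO, and 29.4 and 26.5 in treated WT. Both clones of each knockout lay above both WT clones for CDC25C, and clone 22 of the OGG1 knockout was highest. WEE1 was at 111 and 109 CPM in WT, 96.0 and 125 in the MUTYH knockout, 108 and 113 in the OGG1 knockout, 114 and 117 in DKO, and 122 and 100.4 in treated WT. Its clones differed most within the MUTYH knockout, which held both the lowest and the highest untreated value.

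Polo and Aurora kinases act on the centrosome, the spindle and the centromere. PLK1 was at 311 and 311 CPM in WT, 337 and 335 in the MUTYH knockout, 308 and 321 in the OGG1 knockout, 343 and 366 in DKO, and 379 and 334 in treated WT. It was among the steadiest members, with all untreated libraries within a 1.19-fold range. AURKA, the Aurora kinase of the spindle poles, was at 139.9 and 128 CPM in WT, 146 and 145 in the MUTYH knockout, 123 and 153 in the OGG1 knockout, 142 and 202 in DKO, and 173 and 155 in treated WT. Clone 14 of DKO stood above every other library. AURKB, the Aurora kinase of the centromere, was at 142 and 120.0 CPM in WT, 138 and 127 in the MUTYH knockout, 119.6 and 168 in the OGG1 knockout, 112 and 128 in DKO, and 123 and 96.1 in treated WT. Its highest level was in OGG1 knockout clone 22 and its lowest in treated WT clone 11. BIRC5, survivin, which anchors AURKB, was at 162 and 168 CPM in WT, 176 and 198 in the MUTYH knockout, 159 and 186 in the OGG1 knockout, 145 and 198 in DKO, and 198 and 208 in treated WT. It was lowest in DKO clone 4, while both treated WT libraries lay above both untreated ones.

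CDC20 activates the anaphase-promoting complex, and the checkpoint proteins BUB1, BUB3, MAD2L1 and TTK restrain it until chromosomes are attached. CDC20 was at 238 and 242 CPM in WT, 272 and 254 in the MUTYH knockout, 222 and 268 in the OGG1 knockout, 227 and 269 in DKO, and 256 and 258 in treated WT. BUB1 was at 183 and 215 CPM in WT, 215 and 195 in the MUTYH knockout, 198 and 166 in the OGG1 knockout, 200.3 and 195 in DKO, and 174 and 198 in treated WT. Neither gene separated the genotypes as a whole, although both MUTYH knockout clones exceeded WT for CDC20. BUB3 was at 215 and 215 CPM in WT, 224 and 232 in the MUTYH knockout, 195 and 236 in the OGG1 knockout, 199 and 258 in DKO, and 261 and 259 in treated WT. MAD2L1 was at 132 and 108 CPM in WT, 98.4 and 129.7 in the MUTYH knockout, 89.5 and 137 in the OGG1 knockout, 84.4 and 137 in DKO, and 148 and 139 in treated WT. MAD2L1 was below 110 CPM in 1 clone of each genotype and above 129 in the other. TTK was at 101 and 88.5 CPM in WT, 88.3 and 85.1 in the MUTYH knockout, 77.1 and 75.8 in the OGG1 knockout, 88.5 and 95.4 in DKO, and 112 and 96.0 in treated WT. Both OGG1 knockout clones were below all other libraries for TTK.

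Of the kinetochore members, CENPE is a motor that moves chromosomes to the spindle equator, CENPF joins the outer kinetochore late in the cycle, and NDC80 binds microtubules. CENPE was at 147 and 184 CPM in WT, 173 and 150.01 in the MUTYH knockout, 161 and 101 in the OGG1 knockout, 130.2 and 120.5 in DKO, and 148 and 139 in treated WT. CENPF was at 480.2 and 549 CPM in WT, 499 and 479 in the MUTYH knockout, 537 and 377 in the OGG1 knockout, 425 and 412 in DKO, and 488 and 444 in treated WT. Both were lower in OGG1 knockout clone 22 than in clone 1, and both DKO clones were below WT. NDC80 was at 89.0 and 102.83 CPM in WT, 114 and 101 in the MUTYH knockout, 111 and 102 in the OGG1 knockout, 113 and 113 in DKO, and 108 and 101 in treated WT. For NDC80, WT clone 2 was the lowest library.

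Among the kinesins, KIF11 pushes spindle poles apart, KIF18A shortens microtubules at the kinetochore and KIF20A acts in cytokinesis. KIF11 was at 227 and 234 CPM in WT, 222 and 254 in the MUTYH knockout, 196 and 174 in the OGG1 knockout, 164 and 199 in DKO, and 262 and 205 in treated WT. KIF18A was at 42.3 and 44.4 CPM in WT, 49.96 and 49.8 in the MUTYH knockout, 38.7 and 40.8 in the OGG1 knockout, 43.6 and 53.5 in DKO, and 61.0 and 54.4 in treated WT. KIF11 lay below WT in all 4 OGG1 knockout and DKO clones, and KIF18A was below both WT clones only in the 2 OGG1 knockout clones. KIF20A was at 151 and 193 CPM in WT, 215 and 183 in the MUTYH knockout, 172 and 156 in the OGG1 knockout, 166 and 179.5 in DKO, and 175 and 160.5 in treated WT. Here WT clone 2 was lowest and MUTYH knockout clone 7 highest.

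TOP2A untangles DNA, MKI67 coats mitotic chromosomes, HMMR organises spindle microtubules and FOXM1 is the transcription factor of the G2/M wave. TOP2A was at 676 and 852 CPM in WT, 798 and 774 in the MUTYH knockout, 761 and 660.0 in the OGG1 knockout, 699.9 and 859 in DKO, and 778 and 785 in treated WT. MKI67 was at 751 and 986 CPM in WT, 945 and 819 in the MUTYH knockout, 948 and 553 in the OGG1 knockout, 822 and 591 in DKO, and 857 and 777 in treated WT. In WT, the OGG1 knockout and DKO, the clones of 1 genotype were further apart in MKI67 than the means of any 2 genotypes. HMMR was at 163 and 169 CPM in WT, 162 and 144 in the MUTYH knockout, 161 and 156 in the OGG1 knockout, 152 and 186 in DKO, and 189 and 179.8 in treated WT. FOXM1 was at 246 and 225 CPM in WT, 217 and 254 in the MUTYH knockout, 191 and 174 in the OGG1 knockout, 213 and 221 in DKO, and 275 and 275 in treated WT. Both OGG1 knockout clones had less FOXM1 than any other library, and both treated WT libraries had more.

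**Figure D3:**
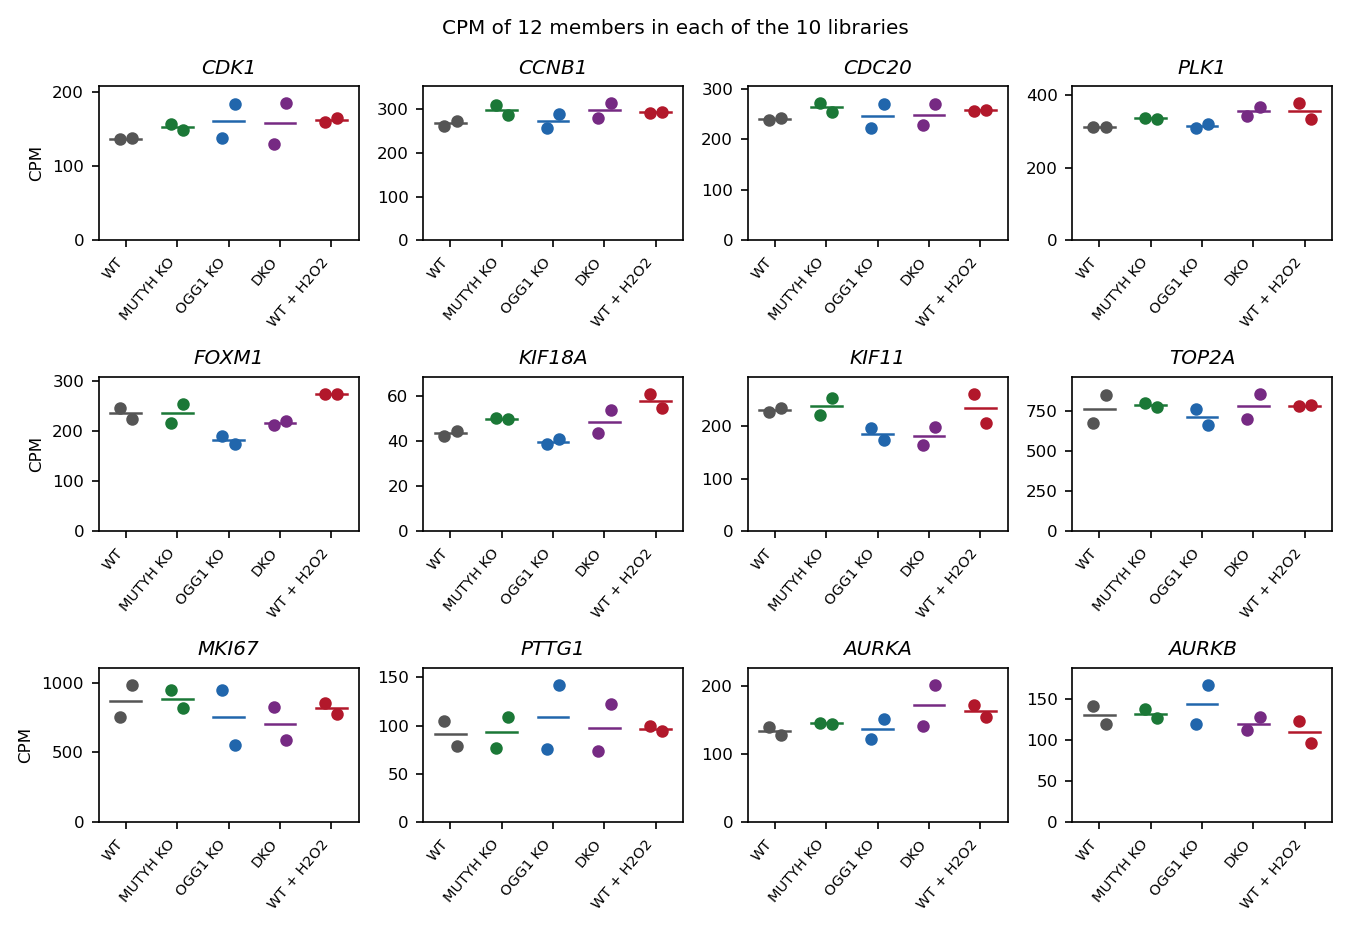
CPM (y axis, from 0) of 12 members in each of the 10 libraries, grouped on the x axis by genotype and treatment; points are single clones and lines the mean of the 2 clones. The points of a group are often as far apart as the groups, as for MKI67 (553 and 948 CPM in the OGG1 knockout), while FOXM1 is lowest in the OGG1 knockout (174 and 191 CPM).

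No member passed the study's criterion for differential expression (unadjusted P no higher than 0.05 with a log2 fold change over 1 in size) in any comparison, and none passed a Benjamini-Hochberg adjusted p of 0.05 in the edgeR quasi-likelihood test. Loss of MUTYH was examined first. Over the 17881 genes tested, an unadjusted P no higher than 0.05 was found for 1.72%, 1.19% met the study's criterion and 0.00559% (1 gene) passed the adjusted p; of the 42 members, 0 did at each of these. The median log2 fold change of the members was 0.04, against 0.01 over all genes, and 28 of 42 were above 0. Both clones lay above both WT clones for 12 members, among them CDK1, CCNB1, CDC20 and PLK1, and below for 3, TTK, HMMR and SGO2, against 11.8% and 9.78% of all tested genes. CDC25C had the smallest P, with a log2 fold change of 0.29 ± 0.19 (SE, edgeR adjusted p = 1.0), followed by KIF18A (0.20 ± 0.15) and KIF20A (0.21 ± 0.18). With the library sets described below as a block, 0 members reached an unadjusted P of 0.05, against 4.46% of all genes. These sets were found in the same libraries, so P values with this block may be too small, here and below.

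Loss of OGG1 gave 1 member at an unadjusted P of at most 0.05, against 2.74% of all tested genes. This was FOXM1, lower, at -0.37 ± 0.15 on the log2 scale (SE, edgeR adjusted p = 0.999). Next came TTK (-0.30 ± 0.13) and CDC25C (0.40 ± 0.19), which did not reach it. No member met the study's criterion, against 1.67% of all genes, and 0 members and 0% of all genes passed the adjusted p. The median over the members was -0.08, against 0.01 over all genes, with 17 of 42 above 0. Both clones lay below both WT clones for 12 members, against 12.2% of all genes, among them KIF11, KIF18A, KIF20B and KIF23 of the 6 kinesins, and above for 3, CDK1, CDC25C and KIF2C, against 13% of all genes. With the library sets as a block, 6 members reached an unadjusted P of 0.05, against 7.18% of all genes: CDC25C higher, and FOXM1, TTK, CENPE, KIF11 and SGO2 lower. In the fit without a block, leaving out clone 22, which retained the OGG1 transcript, gave 0 members, and FOXM1 differed by -0.29. Without clone 1 the number was 4, and FOXM1 differed by -0.45; without either WT clone it was 0.

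The comparison of DKO with WT gave 0 members at an unadjusted P of at most 0.05, against 2.94% of all tested genes. The study's criterion was met by 0 members and 1.77% of all genes, and the adjusted p by 0 members and 0% of all genes. The smallest P belonged to KIF11, with a log2 fold change of -0.35 ± 0.16 (SE, edgeR adjusted p = 1.0), before AURKA (0.36 ± 0.20) and NDC80 (0.24 ± 0.15). Members lay evenly on both sides, with a median of 0.00 and 21 of 42 above 0; the median was 0.08 without clone 4 and -0.12 without clone 14. Both clones exceeded both WT clones for 9 members, against 13.1% of all genes, among them CCNB1, PLK1, AURKA and WEE1, and were below for 7, against 12.6%, among them CENPE, CENPF, KIF11 and FOXM1. The set block gave 5 members at an unadjusted P of 0.05, against 7.32% of all genes: AURKA and NDC80 higher, and NUF2, CENPE and KIF11 lower. The AURKA value rested on clone 14, since it was 0.08 without it and 0.59 without clone 4.

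The knockouts share the WT libraries, so they were also compared directly with each other. The OGG1 knockout includes clone 22, by product number the parent of the DKO clones, so these groups are not independent. DKO against the OGG1 knockout gave 0 members at an unadjusted P of at most 0.05, against 2.62% of all genes, and 4 with the set block, against 7.58%. These 4 were CDC25B, AURKA, TTK and KIF18A, all higher in DKO. The smallest unblocked P were those of TTK (0.27 ± 0.13), KIF18A (0.29 ± 0.15) and CDC25B (0.24 ± 0.14), and the median over the members was 0.03. DKO against the MUTYH knockout gave 1 member, against 3.43% of all genes. This was KIF11, at -0.38 ± 0.16 (SE, edgeR adjusted p = 1.0), followed by CENPE (-0.36 ± 0.24) and AURKA (0.25 ± 0.20). The number was 0 without MUTYH knockout clone 7 or 8 and without DKO clone 4. With the set block 3 members, KIF11, CENPE and MKI67, were lower at an unadjusted P of 0.05, against 8.47% of all genes.

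The OGG1 against the MUTYH knockout gave 1 member, against 2.53% of all genes. FOXM1 was lower in the OGG1 knockout, at -0.36 ± 0.15 (SE, edgeR adjusted p = 1.0), followed by KIF11 (-0.35 ± 0.16) and KIF18A (-0.32 ± 0.15). The median of the members was -0.10, against 0.00 over all genes, and 7 of 42 were above 0. Leaving out clone 1 of the OGG1 knockout gave 3 members, and leaving out its clone 22 or either MUTYH knockout clone gave 0. With the set block 4 members, FOXM1, KIF11, KIF18A and CDC25B, were lower, against 7.1% of all genes. A test for any difference among the 4 genotypes gave 0 members at an unadjusted P of at most 0.05, against 2.64% of all genes, and 3 with the set block (KIF11, FOXM1 and CENPE), against 7.47%. Its smallest P were those of KIF11 (0.0869), FOXM1 (0.13) and KIF18A (0.193). A P over the threshold does not show that genotypes have the same level: the median SE of a member was 0.17 on the log2 scale.

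**Figure D4:**
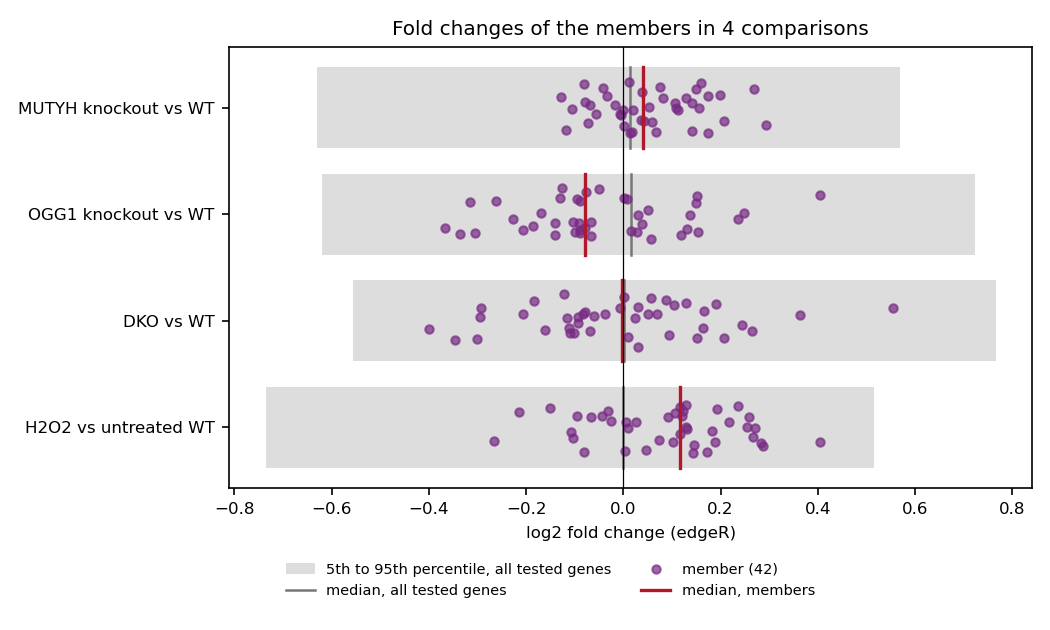
Log2 fold change (x axis, edgeR) of the 42 members in the 3 knockouts and in treated WT, each against untreated WT; points are members with a random vertical offset, red bars their medians, grey bands the 5th to 95th percentile and grey bars the median of all tested genes. All members lie inside the band of all genes, and their medians are 0.04, -0.08, 0.00 and 0.12. The band was not matched to the level of the members. The median SE was 0.17 for members and 0.29 for all genes in the knockouts, and 0.14 and 0.23 in treated WT.

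Differences after H2O2 were small in the members. KIF18A was the 1 member at an unadjusted P of at most 0.05, against 7.63% of the 16997 tested genes, with a log2 fold change of 0.40 ± 0.14 (SE, edgeR adjusted p = 0.638). BIRC5 (0.29 ± 0.12) and BUB3 (0.27 ± 0.12) came next. The number of members at this P was 0 without WT clone 11, without treated clone 2 or without treated clone 11. The study's criterion was met by 0 members and 1.75% of all genes, and the adjusted p by 0 members and 0% of all genes. Mitochondrial genes took 3.38% and 2.995% of counts in treated and 5.02% and 5.14% in untreated WT; their part was not tested. The median over the members was 0.12, against 0.00 over all genes, with 31 of 42 above 0. Both treated clones lay above both untreated ones for 17 members, against 21.5% of all genes, among them CDK1, CCNB1, CCNB2, CDC20, PLK1, AURKA, MAD2L1, KIF18A and FOXM1; 0 members were below in both, against 20% of all genes.

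Treated and untreated libraries came from the same 2 clones, which allows a paired view. The paired fit leaves 1 residual degree of freedom, so the spread of a gene is largely taken from other genes. In the fit with clone as replicate block, 5 members reached an unadjusted P of 0.05, against 20.1% of all genes: KIF18A (0.40 ± 0.13), BIRC5 (0.29 ± 0.12), AURKA (0.28 ± 0.12) and BUB3 (0.27 ± 0.12) were higher and AURKB (-0.27 ± 0.12) was lower. After adjustment 0 members passed, against 2.57% of all genes, and 0 met the study's criterion, against 2.78%. Clone by clone, 37 members were higher after treatment in clone 2 and 23 in clone 11, against 50.6% and 51.9% of all tested genes, with medians of 0.17 and 0.07 on the log2 scale. The direction was upward in both clones for 21 of 42 members (against 34.0% of all tested genes), downward in both for 3 (AURKB, BUB1 and NUSAP1, against 31.4%) and opposite for 18 (against 34.4%). Without treated clone 2 the median over the members was 0.01, and without treated clone 11 it was 0.17.

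Of 40 genes that control the programme, 4 were higher and 0 lower after H2O2 at an unadjusted P of at most 0.05, against 7.63% of all tested genes in either direction, and 0 passed the adjusted p. With clone as block 9 were higher and 3 lower, against 20.1% of all genes, and 3 passed the adjusted p, against 2.57%: CDKN1A, GADD45A and CDC25A. CDKN1A was at 7.85 and 3.94 CPM in WT, 3.69 and 19.3 in the MUTYH knockout, 3.89 and 8.52 in the OGG1 knockout, 7.34 and 17.4 in DKO, and 195 and 18.9 in treated WT. Its log2 fold change after H2O2 was 4.17 ± 1.11 (SE, edgeR adjusted p = 0.638) without the block and 3.66 ± 0.38 (SE, edgeR adjusted p = 0.000503) with it. Without the block it was 1.66 without treated clone 2 and 5.04 without treated clone 11, so the size depends on the clone. GADD45A, a damage-induced inhibitor of CDK1, was at 7.85 and 6.16 CPM in WT, 6.19 and 10.9 in the MUTYH knockout, 8.40 and 9.77 in the OGG1 knockout, 9.98 and 11.3 in DKO, and 64.2 and 27.0 in treated WT. It differed after H2O2 by 2.69 ± 0.44 on the log2 scale (SE, edgeR adjusted p = 0.638) without the block and 2.60 ± 0.20 (SE, edgeR adjusted p = 3.7e-05) with it, and 1.93 without treated clone 2. Both genes were higher in treated clone 2 than in treated clone 11. The SE and adjusted p with the block rest largely on the spread of other genes and may be too small for these genes.

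The other cell cycle genes were taken from 6 lists, and their counts are set beside those of all genes. CDC25A, a phosphatase of the cell cycle kinases, differed by 0.52 ± 0.13 after H2O2 (SE, edgeR adjusted p = 0.638) and by 0.53 ± 0.12 with clone as block (SE, edgeR adjusted p = 0.0412). ANAPC16, a subunit of the anaphase-promoting complex, differed by 0.58 ± 0.15 (SE, edgeR adjusted p = 0.638) and by 0.58 ± 0.13 with the block (SE, edgeR adjusted p = 0.0420). Without the block, CDC25A no longer reached an unadjusted P of 0.05 once treated clone 2 was left out, nor ANAPC16 once treated clone 11 was. Of 26 genes of G1/S and replication 22 were above 0, with a median of 0.21, and of 24 genes of the anaphase-promoting complex and mitotic exit 17 were above 0, with a median of 0.16, against 50.04% and 0.00 over all tested genes. The first genes of these lists, PCNA and ANAPC1, were at 293 and 226 CPM, and at 246 and 238 CPM, in treated WT, against 247 and 199 CPM, and 228 and 210.4 CPM, in untreated WT. Unadjusted P values of at most 0.05 were reached by 4 of the 26 and by 3 of the 24, all higher, against 7.63% of all genes, and with clone as block by 9 and by 5, all higher, against 20.1%. Without the block they were also reached by 2 of 20 condensin and cohesin genes, both higher, by 2 of 32 inner kinetochore genes, 1 in each direction, and by 0 of 41 spindle genes; with it the numbers were 3, 5 and 3.

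In the OGG1 knockout and in DKO the medians of all 6 lists lay below 0, against medians of 0.01 and 0.00 and shares above 0 of 52.6% and 50.2% over all tested genes. Condensin, cohesin and separation genes had a median of -0.18 (log2 fold change) in the OGG1 knockout (1 of 20 above 0) and -0.15 in DKO (2 of 20), and 1 gene in each was lower at an unadjusted P of 0.05, against 2.74% and 2.94% of all genes. SMC2, a condensin subunit and the first of the list, was at 185 and 197 CPM in WT, 190.4 and 208 in the MUTYH knockout, 173 and 134 in the OGG1 knockout, 157 and 175 in DKO, and 226 and 219.7 in treated WT. Spindle, centrosome and cytokinesis genes had medians of -0.09 and -0.11 (8 and 6 of 41 above 0), and inner kinetochore and checkpoint genes of -0.04 and -0.12 (14 and 4 of 32 tested). KIF4A, the first of the spindle list, was at 149 and 186 CPM in WT, 209 and 165 in the MUTYH knockout, 186 and 141 in the OGG1 knockout, 155 and 156 in DKO, and 195 and 210.3 in treated WT. CENPC, the first of the kinetochore list, was at 28.1 and 31.2 CPM in WT, 30.3 and 33.5 in the MUTYH knockout, 32.6 and 33.7 in the OGG1 knockout, 25.7 and 29.5 in DKO, and 29.9 and 24.5 in treated WT. The remaining medians were -0.02 and -0.07 for the anaphase-promoting complex, -0.02 and -0.04 for the genes that control the programme, and -0.06 and -0.04 for G1/S and replication. At an unadjusted P of 0.05, 1 spindle gene was lower in DKO. With the set block, the condensin, spindle and kinetochore lists had 4, 3 and 1 genes lower in the OGG1 knockout and 2, 8 and 3 in DKO, against 7.18% and 7.32% of all genes in either direction. In the MUTYH knockout the medians of these 3 lists were 0.02, 0.04 and 0.03, against 0.01 over all genes. The knockouts share their WT libraries, and the differences between lists were not tested.

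Among the regulators of the programme, CCND2, cyclin D2, met the study's criterion in each knockout. It was at 38.4 and 11.03 CPM in WT, 8.73 and 6.38 in the MUTYH knockout, 9.31 and 8.52 in the OGG1 knockout, 5.46 and 12.3 in DKO, and 28.2 and 17.2 in treated WT. Its log2 fold changes of -1.71 ± 0.60, -1.47 ± 0.59 and -1.47 ± 0.59 (SE) in the knockouts of MUTYH, of OGG1 and of both rested on WT clone 2, without which they were -0.55, -0.31 and -0.32. CDKN1C, a CDK inhibitor, was higher in the OGG1 knockout by 1.03 ± 0.41 (SE), but by 0.45 without clone 22 and 0.71 without WT clone 2. In the fit of all untreated libraries without a block, no edgeR adjusted p was below 0.999 for these. With the set block the lowest was 0.617, for CCND2 in DKO. MYBL2, which encodes B-MYB, was at 414 and 354 CPM in WT, 356 and 423 in the MUTYH knockout, 339.7 and 349.6 in the OGG1 knockout, 406 and 383 in DKO, and 539.7 and 429.8 in treated WT. Of the 40 genes of this list, 1 was lower in the MUTYH knockout, 1 higher and 2 lower in the OGG1 knockout and 1 lower in DKO at an unadjusted P of at most 0.05, against 1.72%, 2.74% and 2.94% of all genes; with the set block 2, 6 and 6 reached it in either direction, against 4.46%, 7.18% and 7.32%. No list gene passed the adjusted p against WT in a knockout.

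Members also differed between 2 sets of libraries that cross the genotypes. On the first principal component of all tested genes other than the members (31.1% of the variance), set A held DKO clone 14, WT clone 2 and, of the single knockouts, clone 22 (OGG1) and clone 8 (MUTYH), and set B the other clone of each genotype. Mitochondrial genes took 3.75% to 5.02% of counts in set A and 5.14% to 7.46% in set B, and their part in the differences was not tested. The sets were found in the data, no label matches them, and differences between them are given with no test. Every set A library exceeded every set B library for 8 members, against 15.4% of all tested genes: CCNA2, CCNB2, MAD2L1, CENPA, PTTG1, DLGAP5, NUF2 and SGO1. The reverse held for BUB1 and MKI67, against 13.8% of all genes. Together these are 23.8% of the members, against 29.2% of all genes.

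PTTG1 (securin, the inhibitor of separase, chosen after its values were seen) was at 105 and 78.6 CPM in WT, 76.6 and 109.6 in the MUTYH knockout, 75.9 and 143 in the OGG1 knockout, 73.4 and 123 in DKO, and 100.0 and 94.2 in treated WT. The set A libraries lay between 105 and 143 CPM and the set B libraries between 73.4 and 78.6 CPM. MKI67 ran the other way, with 553 to 819 CPM in set A and 822 to 986 CPM in set B. In treated WT the clones were closer for both genes.

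The direction of the set difference followed transcript length among the members. Across the 39 members at 10 CPM or more, Spearman's rho between transcript length and the difference (set A minus set B, mean log2 CPM) was -0.56, and Pearson's r with log2 length was -0.64. Across all 42 members they were -0.41 and -0.38, and across 9954 tested genes at 10 CPM or more with a length -0.23 and -0.21. These are correlations across genes that share the same 8 libraries, and genes are not independent replicates. Within single genotypes rho over the 39 members was -0.44 in WT, -0.11 in the MUTYH knockout, -0.69 in the OGG1 knockout and -0.45 in DKO. It was -0.04 between the 2 treated clones.

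In genes with transcripts up to 1000 bases the median difference was 0.35 over 567 genes and 0.65 for the 1 member, PTTG1. From 1001 to 2000 bases it was 0.15 over all genes and 0.24 over 6 members, and from 2001 to 3000 bases 0.04 and 0.09, over 10 members. Beyond 6000 bases it was -0.06 over 2045 genes and -0.20 over 5 members, among them MKI67, CENPF and CENPE. MAD2L1, with 5227 bases and a difference of 0.50, and BUB3, with 7703 bases and 0.18, ran against this order. Whether RNA quality or library preparation takes part in it was not tested.

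**Figure D5:**
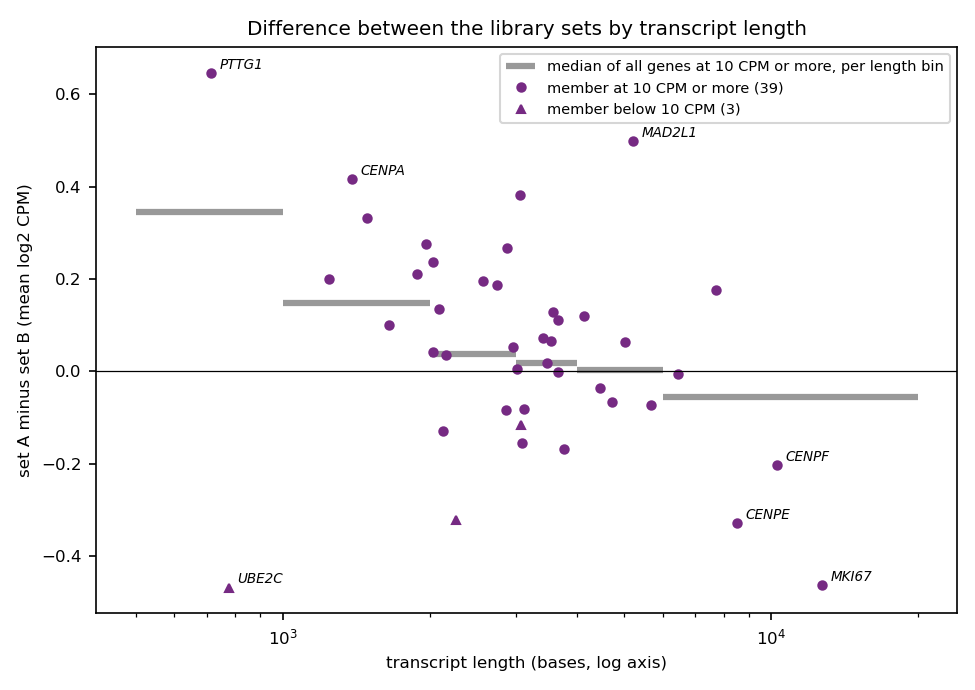
Difference in mean log2 CPM between set A and set B (y axis) against transcript length in bases (x axis, log scale) for the 42 members (circles, 39 at 10 CPM or more; triangles, 3 below), with the median of all genes at 10 CPM or more per length bin as grey bars. PTTG1 is highest at 0.65 and MKI67 lowest of the 39 at -0.46, while the grey bars descend from 0.35 to -0.06.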

How the data were processed

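RNA was isolated with antioxidants and sequenced on the DNBseq platform; cells were kept at low passage so that they stay haploid. Per the labels and the methods, the authors aligned reads to GRCh38.p13 with HISAT2 2.2.1, counted them per gene with featureCounts against an Ensembl annotation, and deposited raw counts; the strand setting and the treatment of reads with several alignments are not given in the sources used here. Both untreated WT columns stood in both tables with identical values and were used once.

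The members and lists were chosen with earlier results of these data known. Tests on the counts used edgeR 4.0.16 under R 4.3.3 (TMM factors, filterByExpr, quasi-likelihood F test with legacy=TRUE, two-sided, Benjamini-Hochberg adjustment over all tested genes). The 8 untreated libraries entered 1 fit (17881 genes, 4 residual degrees of freedom), and the 4 WT libraries another (16997 genes, 2). Standard errors derive from the F statistic. P values of fits without a block set group differences against the spread between clones. With the library sets as block (3 residual degrees of freedom) or clone as block (1), they rest on the spread left after the block. The fit moderates the spread of each gene with that of other genes, most strongly with 1 residual degree of freedom. Where the response differs between clones, SE and P values with clone as block may therefore be too small. CPM are TMM-normalized and log2 CPM used a prior count of 2. Counting error for the 39 members at 10 CPM or more was 0.747% to 4.42% (coefficient of variation at the mean untreated count of each), and covers counting only. No pair of libraries agreed within sampling noise (smallest chi-square per degree of freedom 12.2). Clone numbers pair treated with untreated WT, since these are the same clones; the clone difference correlated between them across genes (Pearson r = 0.681). The fits were run on simulated counts with 1 dispersion for all genes, true log2 fold changes of 1 or 2 in size and no library sets. These changes are larger than those of the members in the main fits, so the run does not show how smaller changes are handled.

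Named members were 20 fixed by role, those past a criterion, and per comparison the 3 with the smallest P; other genes of the lists were named when first in their list or past a criterion. Transcript lengths are those of the Ensembl canonical transcript of each gene. These lengths and the exon overlaps are from GENCODE v44, and promoters from RefSeq. Alternatives were DESeq2 size factors, the Wald test of DESeq2 1.42.0, edgeR 4 quasi-likelihood, other filters, fewer or more libraries, blocks, CPM without TMM and a shorter promoter window. Leaving out libraries for list genes was added after seeing the data.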

Additional observations from a re-analysis of the deposited data

Results flagged for a closer look

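KIF18A and TPX2 were picked because they moved in opposite directions in the single knockouts, with both clones on one side of both WT clones in each case. Both MUTYH knockout clones lay above both WT clones for 11.8% of all tested genes, and both OGG1 knockout clones below for 12.2%. The share of all genes that met both was not determined. The log2 fold change of KIF18A was 0.20 in the MUTYH knockout and -0.13 in the OGG1 knockout. That of TPX2, which targets AURKA to the spindle, was 0.068 and -0.094. The direct comparison of the OGG1 with the MUTYH knockout gave -0.32 ± 0.15 (SE) for KIF18A and -0.16 ± 0.14 (SE) for TPX2, each with an edgeR adjusted p of 1.0, so neither difference passed the test. The same 2 WT libraries served as controls for both. Groups of 2 libraries are too small for a search for single deviating samples.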

How the results depend on the processing

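No member passed the adjusted p under any of the settings tried, and all 42 members were tested in each. Counts at an unadjusted P of 0.05 were small and moved. Without a filter on low counts they were 0 for the OGG1 knockout, for DKO against the MUTYH knockout and for the OGG1 against the MUTYH knockout, and 3 for H2O2. With only the 4 libraries of the groups compared, the first 3 were also 0. The block for the library sets gave 6 for the OGG1 knockout, 5 for DKO, 4 for DKO against the OGG1 knockout, 3 for DKO against the MUTYH knockout, 4 for the OGG1 against the MUTYH knockout and 3 for any genotype difference; the replicate block by clone gave 5 for H2O2. It changed no other call of a member. With 1 library left out, counts ranged from 0 to 4 for the OGG1 knockout (4 without OGG1 knockout clone 1), 0 to 2 for DKO, 0 to 2 for DKO against the OGG1 knockout, 0 to 1 for DKO against the MUTYH knockout, 0 to 3 for the OGG1 against the MUTYH knockout, 0 to 1 for any genotype difference and 0 to 1 for H2O2. Members past the study's criterion ranged from 0 to 1 for DKO and for the MUTYH knockout, each against the OGG1 knockout; the 1 gene was UBE2C, without OGG1 knockout clone 1. The log2 fold change of AURKA in DKO against the MUTYH knockout was -0.037 without DKO clone 14 and 0.47 without DKO clone 4. Medians over the members ranged, with 1 library left out, from 0.05 to 0.08 in the MUTYH knockout, -0.08 to -0.02 in the OGG1 knockout, -0.12 to 0.08 in DKO, -0.03 to 0.15 in DKO against the OGG1 knockout, -0.19 to 0.06 in DKO against the MUTYH knockout, -0.14 to -0.06 in the OGG1 against the MUTYH knockout and 0.01 to 0.17 after H2O2. CPM without TMM factors summed to 7900.4 in the MUTYH knockout, against 7997. The other 306 counts, medians, levels and shares kept within 1.5 times or 1 spread, and 230 of 231 log2 fold changes of named members kept direction and side of the threshold. With the promoter window from 100 bases before the start, 85.3% of the genes held a CHR match, 73.5% a CCAAT and 58.8% both. DESeq2 was not run for the test of any difference. Means of 2 clones limit every comparison, and the cause of each move was not tested.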

Other observations

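Over the 8 untreated libraries the genes whose log2 CPM followed CCNB1 most closely were ZNHIT6 (Pearson r = 0.975), AC245297.2 (0.950), ZSCAN21 (0.948), GRB2 (0.923) and AKAP10 (0.917), among 17880 genes compared. None of them is a member. The libraries share depth and the library sets, and no p is given for values picked as the highest. Among the 39 members at 10 CPM or more the median pairwise Pearson r over these libraries was 0.26, and 13 members had an r of 0.5 or more with CCNB1. CDK1 had an r of 0.87 with CCNB2 and of -0.77 with MKI67.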
